A study of Aspergillus fumigatus with 4 samples.

Results

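CAZyme gene cluster 7 of *Aspergillus fumigatus* Z5 is a run of neighbouring genes on scaffold 3 that holds carbohydrate-active enzyme genes (CAZymes, enzymes that build, cut or modify sugar polymers) among genes of other kinds. Its members were taken by position, as the locus tags from Y699_04617 to Y699_04662 without 4 of these 46 tags, which are not analysed here. This left 42 of the 9540 genes measured, 10 of them CAZymes and 32 other genes. The rule itself uses position and no expression value.

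Z5 is a strain of a heat-tolerant mould that grows on plant matter. The 4 samples were all Z5 mycelium. Conidia were grown at 45 °C for 20 h, per the labels, in a medium with sucrose as its carbon source and some yeast extract, and the sucrose sample stands for this growth. For the other 3 samples the washed mycelium was moved to medium without yeast extract that held xylan, cellulose (Avicel, a microcrystalline cellulose) or rice straw for 16 h. Each carbon source had 1 library, so no value has a replicate and every test compares the reads of 2 libraries, not the conditions. Carbon source cannot be told apart from washing, transfer, the change of medium and possibly culture age when a polysaccharide library is set against sucrose, and all 3 such comparisons share the same sucrose library. The libraries held 6820702 to 7553138 reads on genes, so 1 read was worth 0.132 to 0.147 RPM, the reads scaled to a library of 1000000.

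Fungal genes that take part in the use of a substrate can lie side by side. In filamentous fungi, polymers outside the cell are cut by secreted enzymes, the freed sugars enter through membrane transporters, and zinc cluster (C6 finger) proteins commonly control such gene sets. Glycoside hydrolase (GH) families cut bonds between sugars, polysaccharide lyases (PL) cut acidic polymers such as pectin without water, auxiliary activity (AA) enzymes oxidise, and carbohydrate-binding modules (CBM) hold an enzyme on its substrate, CBM1 on cellulose and CBM20 on starch. The 10 CAZyme members cover a starch-degrading pair and enzymes of chitin, β-glucan and mannan, which are polymers of the fungal wall. They also cover a hemicellulase family, a family of α-glucosidases and related enzymes, a pectate lyase, an oxidase and a cellulose-binding esterase. Functions for 17 members came from the study's tables, which give a CAZyme family, a matching gene of another genome, or both. For 10 members the match was a gene of *A. fumigatus* Af293, and in RefSeq's annotation of that strain (ASM265v1) all 10 were on chromosome 2, in the same order as the Z5 tags.

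Most members were weakly expressed. Of the 42 members, 21 (50%) reached 10 RPM in at least 1 library, against 78.1% of all genes. The median member stood at 1.64 RPM in the sucrose library, then at 3.01 (xylan), 4.70 (cellulose) and 4.30 RPM (rice straw), where the median gene stood at 22.7, 21.1, 25.2 and 20.3 RPM. Summed over the members, the level was 580 RPM for sucrose, 1055 for xylan, 869 for cellulose and 1138 for rice straw, and in each library 3 genes supplied 49 to 56.1% of it. In RNA of whole mycelium, fewer cells that express a gene and less RNA per cell cannot be told apart.

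The expressed members lay towards the middle and the end of the cluster. With the members cut into 3 blocks of 14 in locus order, 4 members of the first block reached 10 RPM in some library, 8 of the middle block and 9 of the last. The median of the members' highest levels was 3.76, 30.3 and 17.7 RPM in these blocks. Among the 21 members that reached 10 RPM, the library with the highest level was sucrose for 3, xylan for 4, cellulose for 7 and rice straw for 7. For all genes that reached 10 RPM, sucrose was the highest library in 32.2%, xylan in 13.8%, cellulose in 37.5% and rice straw in 16.4%.

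**Figure D1:**
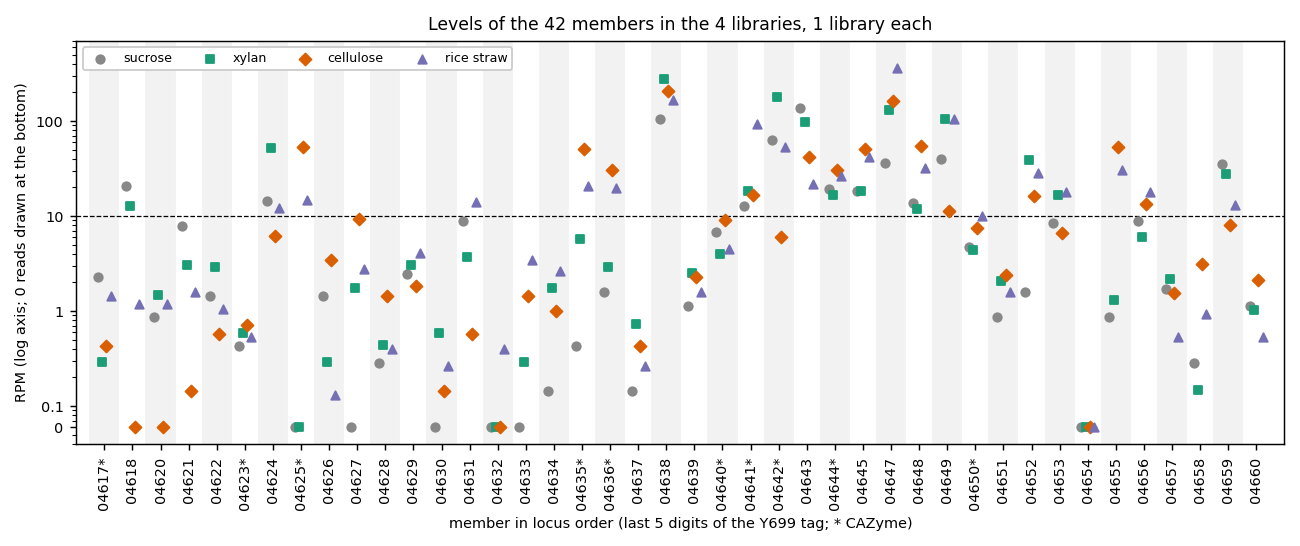
Level in RPM (log axis) of each of the 42 members in locus order, with 1 point for each library and a count of 0 drawn at the bottom; stars mark the 10 CAZymes and the dashed line is 10 RPM. In the first block of 14 only 4 members cross the line in any library, against 8 and 9 in the other blocks, and Y699_04654 has no read in any library.

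A gene was called higher or lower where an exact two-sided binomial test of its reads in the 2 libraries gave a Benjamini-Hochberg adjusted p of at most 0.0001, the RPM differed at least 4-fold and 1 of the libraries reached 10 RPM. In the xylan library 1 of 39 members tested was higher than in the sucrose library, where 3.16% of all genes tested were, and 0 were lower, against 1.57% of all genes. In the cellulose library 6 of 40 were higher (all genes 10.9%) and 3 were lower (all genes 7.28%). In the rice straw library 7 of 41 were higher (all genes 7.61%) and 2 were lower (all genes 7.12%). The median log2 ratio to sucrose, with 0.5 reads added, was 0.52 for the members and -0.20 for all genes in the xylan library, 0.76 and 0.07 for cellulose, and 0.74 and -0.30 for rice straw. Only 14, 18 and 21 of the members had 10 RPM in either library of these 3 comparisons and so could be called.

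Of the 42 members, 11 (26.2%) were called against sucrose in at least 1 library, 7 higher and 4 lower, where 24.9% of all genes were called. Thus the share of all members called was close to the background, but a call needs 10 RPM, which a smaller share of the members reached. Of the genes that reached 10 RPM in some library, 11 of 21 members and 2380 of all 7447 were called. Some members reached it only where they were high, such as Y699_04625, with 0 reads on sucrose and 53.2 RPM on cellulose. For such genes the minimum and the call draw on the same value. These shares therefore cannot be read as a result about the members, and their difference was not tested. The members called were 5 of the 10 CAZymes and 6 of the 32 other members (18.8%), a split that was not tested. Under edgeR's exact test with a coefficient of variation between cultures set to 0.4, 0 members were called on xylan, 3 higher and 1 lower on cellulose, and 3 higher and 0 lower on rice straw. Of all genes, 57 were then higher and 13 lower on xylan, 209 and 138 on cellulose, and 153 and 61 on rice straw. The member calls that held under this test were Y699_04625, Y699_04635 and Y699_04655 higher on cellulose and on rice straw, and Y699_04618 lower on cellulose.

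**Figure D2:**
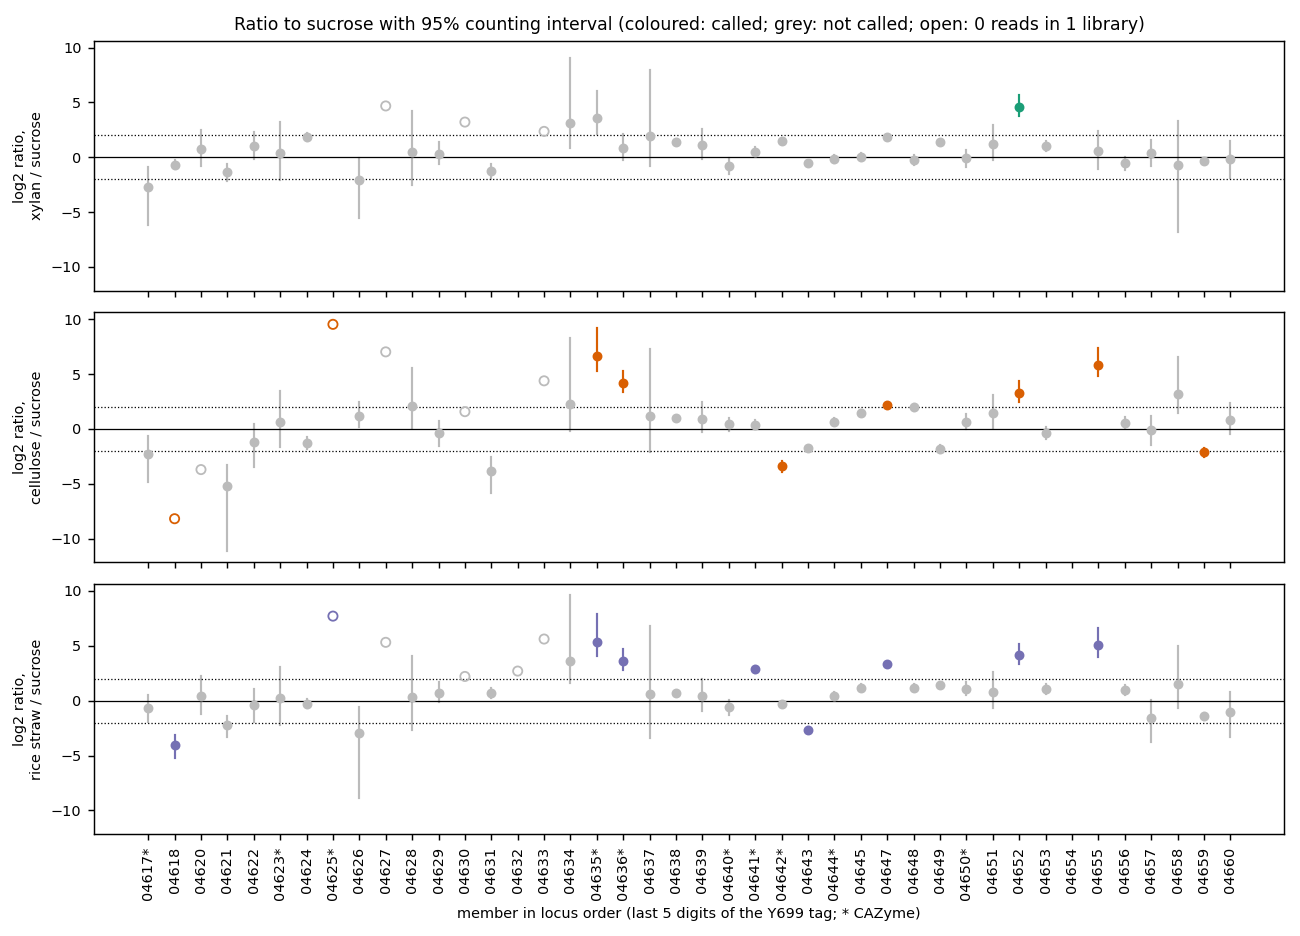
log2 ratio of each polysaccharide library to the sucrose library for the members in locus order, with 0.5 reads added to each count; bars are exact 95% counting intervals, coloured points were called, and open points had 0 reads in 1 library and so have no interval. The panels hold 1 called member for xylan, 9 for cellulose and 9 for rice straw, and the dotted lines mark a 4-fold difference.

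The starch-degrading pair lies side by side and its genes were highest in different libraries. Y699_04641 encodes a glucoamylase (GH15 with CBM20), which releases glucose from the ends of starch chains. It had 90 reads on sucrose (12.8 RPM), 124 on xylan (18.2 RPM), 117 on cellulose (16.7 RPM) and 710 on rice straw (94.0 RPM). Rice straw thus stood alone above 3 libraries of similar level, at 7.32-fold the sucrose level (95% counting interval 5.87 to 9.22), 5.17-fold the xylan level (4.27 to 6.31) and 5.64-fold the cellulose level (4.63 to 6.92), and all 3 ratios were called. Its neighbour Y699_04642 encodes an α-amylase (GH13 with CBM20), which cuts inside starch chains. It had 445 reads on sucrose (63.5 RPM), 1225 on xylan (180 RPM), 42 on cellulose (5.99 RPM) and 401 on rice straw (53.1 RPM). Cellulose was the low library and xylan the high one. The cellulose level was 10.6-fold below sucrose (7.72 to 14.9) and 30-fold below xylan (22.1 to 41.8), and rice straw was 8.87-fold above cellulose (6.44 to 12.5). These 3 ratios were called. The ratio of xylan to sucrose, 2.83 (2.53 to 3.16), and of rice straw to sucrose, 0.836 (0.728 to 0.959), were not. The second of these stood on the other side of 1 under TMM and DESeq2 scaling, with a log2 ratio of 0.04 under either, and its direction is not given.

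As a list, other genes for starch and maltose breakdown differed from the pair, though single genes did not. Of 17 such genes outside the cluster, 6 were higher and 1 was lower on cellulose than on sucrose (all genes 10.9% and 7.28%). On rice straw 1 was higher and 1 lower (all genes 7.61% and 7.12%), and on xylan 0 were higher and 1 lower (all genes 3.16% and 1.57%). Their median log2 ratio to sucrose was 1.17 on cellulose and -0.05 on rice straw. Of the 4 other GH15 genes, 3 were higher and 1 lower on cellulose, where Y699_04641 was at 1.3-fold (0.978 to 1.73) and not called. Between rice straw and cellulose, 0 of the 17 were called higher and 6 lower on rice straw, whereas both genes of the pair were called higher there. The ratio was above 1 for 2 of the 17. The most abundant of these genes on sucrose, Y699_07996, was highest on rice straw (1132 RPM) and lowest on cellulose (356 RPM). Y699_05835, of GH15, was called lower on cellulose than on sucrose, as was Y699_04642.

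A group of 3 CAZyme members was close to silent on sucrose and was read on cellulose and, at a lower RPM, on rice straw. None of the 3 was called lower on rice straw than on cellulose. Y699_04625 encodes a GDSL lipase/acylhydrolase, an enzyme class that splits ester bonds, with a CBM1. It had 0 reads on sucrose and 0 on xylan, but 373 on cellulose (53.2 RPM) and 112 on rice straw (14.8 RPM). With a library at 0 set to a floor of 3 counts, it was at least 124-fold higher on cellulose and at least 34.6-fold higher on rice straw than on sucrose, and at least 121-fold and 33.7-fold higher than on xylan. Thus the sucrose and xylan libraries held no read of it, and the cellulose and rice straw libraries stood above 10 RPM. Outside the cluster, 24 genes carry a CBM1, and 13 of them were higher on cellulose, 14 on rice straw and 4 on xylan than on sucrose, with 1, 1 and 0 lower. The shares of all genes were 10.9%, 7.61% and 3.16% higher, and 7.28%, 7.12% and 1.57% lower.

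Y699_04635 encodes a β-N-hexosaminidase (GH20), an enzyme that trims amino sugars from the ends of chitin fragments. It had 3 reads on sucrose (0.428 RPM), 39 on xylan (5.72 RPM), 355 on cellulose (50.6 RPM) and 157 on rice straw (20.8 RPM). Every polysaccharide library was above sucrose, by 118-fold on cellulose (40.1 to 576) and 48.5-fold on rice straw (16.3 to 238), both called. The 13.4-fold ratio on xylan (4.24 to 67.5) was not called because neither library reached 10 RPM. The wide intervals come from the 3 sucrose reads. The level on cellulose was 8.85-fold that on xylan (6.35 to 12.7). The other gene listed under GH20, Y699_05578, was at 34.3 RPM on sucrose and at 137, 394 and 409 RPM on xylan, cellulose and rice straw, and was called higher in all 3.

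Y699_04636, next to it, is a hypothetical protein of GH43, a family of xylosidases and arabinofuranosidases that strip the side chains and ends of hemicellulose. It had 11 reads on sucrose (1.57 RPM), 20 on xylan (2.93 RPM), 212 on cellulose (30.2 RPM) and 150 on rice straw (19.9 RPM). The 2 libraries with little of it were sucrose and xylan, which differed by 1.87-fold with an interval that spans 1 (0.853 to 4.32). Cellulose was 19.2-fold (10.5 to 39.1) and rice straw 12.6-fold (6.87 to 25.9) above sucrose, and they were 10.3-fold (6.51 to 17.2) and 6.77-fold (4.23 to 11.4) above xylan. Of the 15 other GH43 genes, 2 were higher than on sucrose on xylan (all genes 3.16%), 6 on cellulose (10.9%) and 3 on rice straw (7.61%). On cellulose 1 was lower (all genes 7.28%).

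The other 5 CAZyme members were not called in any of the 6 comparisons. Y699_04644, a FAD-binding protein of AA7, a family of sugar oxidases, was the best covered, with 134 reads on sucrose (19.1 RPM), 115 on xylan (16.9 RPM), 213 on cellulose (30.4 RPM) and 198 on rice straw (26.2 RPM). Its ratio to sucrose was at most 1.59 (1.27 to 1.98), on cellulose. Y699_04650, a pectate lyase (PL1), which cuts the pectin backbone, had 33, 30, 52 and 76 reads in the same order, and reached 10.1 RPM on rice straw. Y699_04640 (GH76, a family of α-mannanases) had 48, 27, 64 and 34 reads, and its level stayed under 10 RPM. Y699_04617, an exo-β-1,3-glucanase of GH55, had 16 reads on sucrose and 11 on rice straw, but 2 on xylan and 3 on cellulose. Y699_04623 (GH31, a family of α-glucosidases and related enzymes) had 3 to 5 reads in each library, and no difference was detectable at this depth.

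**Figure D3:**
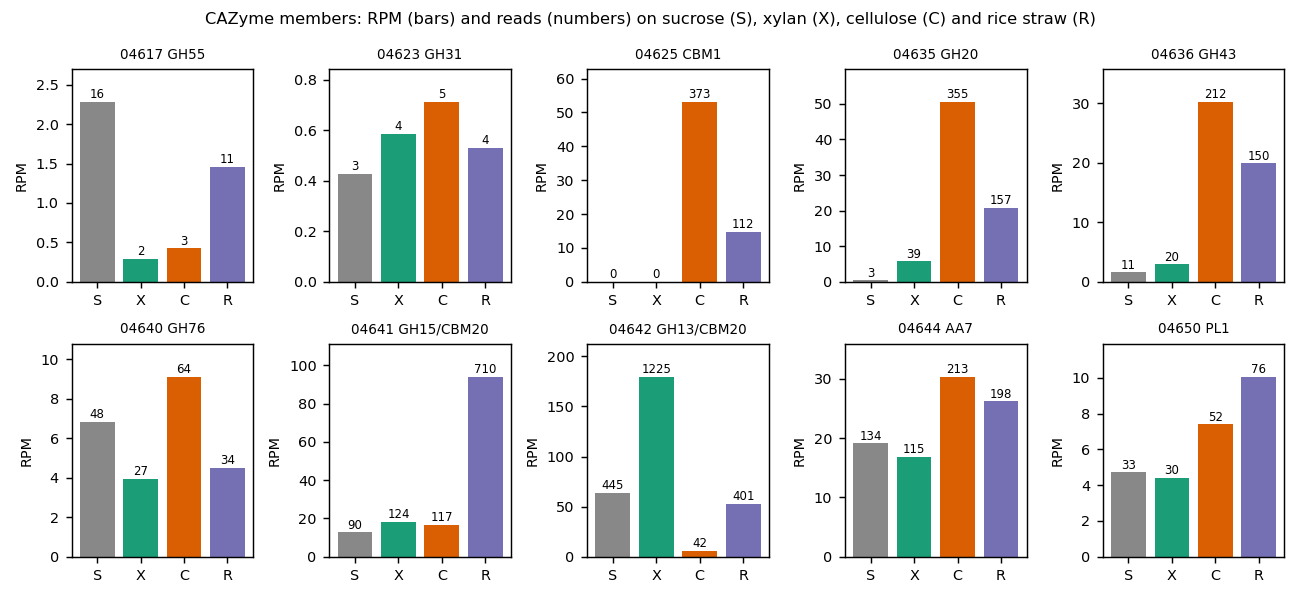
Level in RPM (bars, 1 library each, axes start at 0 and differ between panels) and read count (numbers) of the 10 CAZyme members on sucrose (S), xylan (X), cellulose (C) and rice straw (R). Y699_04625, Y699_04635 and Y699_04636 have their highest bar on cellulose, Y699_04641 on rice straw at 94.0 RPM and Y699_04642 on xylan at 180 RPM.

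The other esterase of the cluster behaved unlike the CBM1 one. Y699_04652 encodes an extracellular GDSL-like lipase/acylhydrolase for which no CBM is listed. It had 11 reads on sucrose (1.57 RPM), 264 on xylan (38.7 RPM), 113 on cellulose (16.1 RPM) and 216 on rice straw (28.6 RPM). All 3 polysaccharide libraries were above sucrose, by 24.7-fold on xylan (13.6 to 50), 10.3-fold on cellulose (5.52 to 21.1) and 18.2-fold on rice straw (9.98 to 37). It was the member called on xylan and the only member called higher on all 3 substrates, as were 120 of all genes. Cellulose was 2.40-fold below xylan (ratio 0.416, 0.331 to 0.521), a difference that was not called.

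Transporters of the major facilitator superfamily (MFS) move small solutes such as sugars or drugs across membranes. Y699_04655, an MFS transporter, had 6 reads on sucrose (0.856 RPM), 9 on xylan (1.32 RPM), 370 on cellulose (52.7 RPM) and 232 on rice straw (30.7 RPM). Cellulose and rice straw formed the high pair, at 61.6-fold (28 to 169) and 35.9-fold (16.2 to 98.7) the sucrose level and at 40-fold (20.8 to 88.1) and 23.3-fold (12.1 to 51.5) the xylan level. Y699_04648, an MFS multidrug transporter, had 97 reads on sucrose (13.8 RPM), 80 on xylan (11.7 RPM), 381 on cellulose (54.3 RPM) and 240 on rice straw (31.8 RPM). The order of its libraries was the same in that cellulose was highest and rice straw next, but its ratios were smaller. It was called only on cellulose against xylan, 4.63-fold (3.63 to 5.97), while the ratio of cellulose to sucrose was 3.92 (3.13 to 4.95), just under the 4-fold threshold. The cellulose-to-xylan call was lost under TMM and DESeq2 scaling.

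Y699_04647, named for salicylate hydroxylase, an enzyme that turns the aromatic acid salicylate into catechol, had the highest RPM of any member in any library. It had 253 reads on sucrose (36.1 RPM), 897 on xylan (132 RPM), 1147 on cellulose (163 RPM) and 2762 on rice straw (366 RPM). All 3 polysaccharide libraries were above sucrose, by 3.64-fold on xylan (3.16 to 4.2), 4.53-fold on cellulose (3.95 to 5.21) and 10.1-fold on rice straw (8.90 to 11.6). The ratio on xylan was not called, but was under TMM and DESeq2 scaling, where the log2 ratio was 2.06 and 2.07. Rice straw was 2.24-fold above cellulose (2.09 to 2.40). Per kilobase of coding sequence its level was 275 RPM on rice straw, where 498 of the 9540 genes stood above it.

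Y699_04643 is named for an aldehyde dehydrogenase, which oxidises aldehydes to acids. It had 959 reads on sucrose (137 RPM), 670 on xylan (98.2 RPM), 295 on cellulose (42 RPM) and 164 on rice straw (21.7 RPM). Sucrose was the highest library and rice straw the lowest, the reverse of the order of Y699_04647. The level on rice straw was 6.30-fold below sucrose (5.34 to 7.49) and 4.52-fold below xylan (3.81 to 5.40), both called. The level on cellulose was 3.26-fold below sucrose (ratio 0.307, 0.269 to 0.350) and was not called.

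Y699_04659, a C6 finger domain protein, belongs to the zinc cluster class of fungal transcription regulators. It had 248 reads on sucrose (35.4 RPM), 190 on xylan (27.9 RPM), 57 on cellulose (8.12 RPM) and 98 on rice straw (13.0 RPM). Sucrose and xylan were the high pair, which is the opposite side from Y699_04655 and Y699_04636. The cellulose level was 4.36-fold below sucrose (3.26 to 5.92), which was called, and the rice straw level 2.73-fold below (ratio 0.367, 0.287 to 0.465), which was not.

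Of the members without an assigned role, 4 were called in some comparison. Y699_04618, a short gene of 240 coding bases, had 144 reads on sucrose (20.6 RPM), 88 on xylan (12.9 RPM), 0 on cellulose and 9 on rice straw (1.19 RPM). It was at least 48.1-fold lower on cellulose than on sucrose, and 17.3-fold lower on rice straw (8.84 to 38.5). Against xylan it was at least 30.2-fold lower on cellulose and 10.8-fold lower on rice straw (5.45 to 24.5). Y699_04618 was therefore read in the libraries where Y699_04625 had no read, and hardly at all where Y699_04625 was read.

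Y699_04624, beside Y699_04625, was highest on xylan, with 102 reads on sucrose (14.6 RPM), 355 on xylan (52 RPM), 43 on cellulose (6.13 RPM) and 91 on rice straw (12.0 RPM). Cellulose was 8.49-fold (6.18 to 11.9) and rice straw 4.32-fold (3.42 to 5.50) below xylan. The xylan level was 3.57-fold that on sucrose (2.86 to 4.50), which was called only under TMM and DESeq2 scaling. Y699_04631 had 62 reads on sucrose (8.85 RPM), 25 on xylan (3.67 RPM), 4 on cellulose (0.570 RPM) and 107 on rice straw (14.2 RPM). Cellulose was the low library, and rice straw was 24.9-fold above it (9.43 to 92.9).

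Y699_04649, a hypothetical protein of 387 coding bases, had 278 reads on sucrose (39.7 RPM), 710 on xylan (104 RPM), 79 on cellulose (11.3 RPM) and 795 on rice straw (105 RPM). Xylan and rice straw did not differ beyond counting error (ratio 1.01, 0.913 to 1.12), and cellulose was lowest. The xylan level was 9.25-fold (7.32 to 11.8) and the rice straw level 9.35-fold (7.41 to 11.9) that on cellulose. Per kilobase of coding sequence it was the highest member on sucrose, at 103 RPM, and on xylan, at 269 RPM. Among the members called in some comparison, cellulose was also the lowest library of Y699_04618, Y699_04624, Y699_04631, Y699_04642 and Y699_04659.

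**Figure D4:**
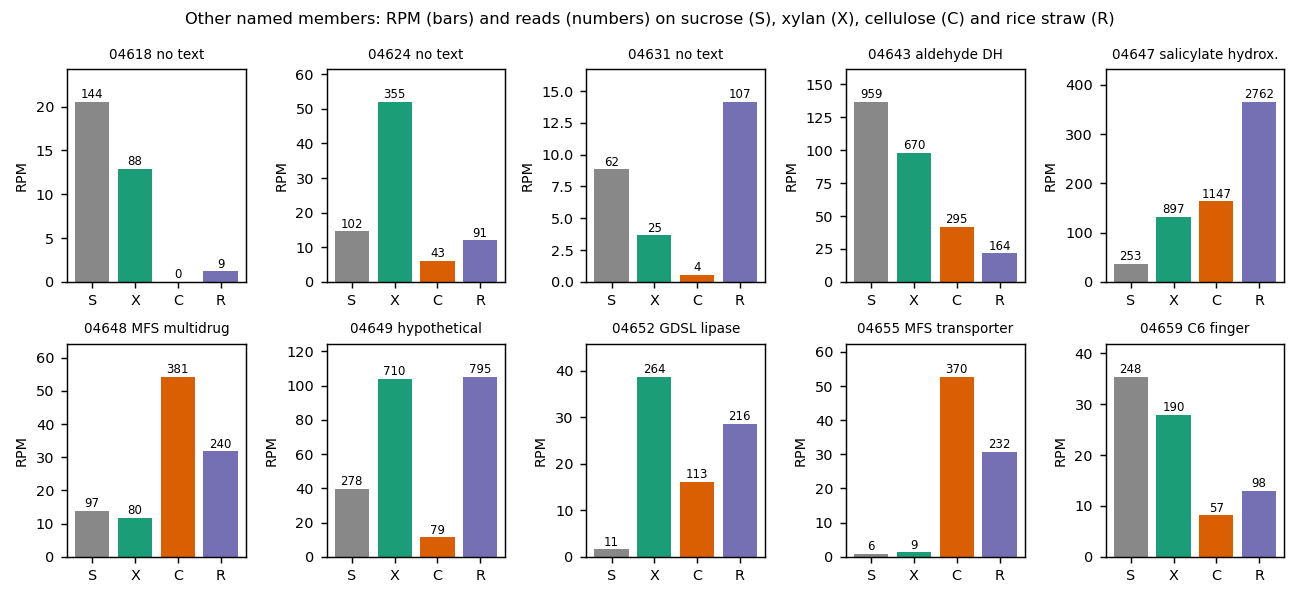
Level in RPM (bars, 1 library each, axes start at 0 and differ between panels) and read count (numbers) of the 10 other named members on sucrose (S), xylan (X), cellulose (C) and rice straw (R). Y699_04655 and Y699_04648 are highest on cellulose, Y699_04652 and Y699_04624 on xylan, Y699_04647 on rice straw, and Y699_04618, Y699_04643 and Y699_04659 on sucrose.

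Between polysaccharides, where all cultures had been transferred alike, 12 members (28.6%) were called in at least 1 comparison, where 22.1% of all genes were. On cellulose against xylan, 5 of 40 members were higher (all genes 9.65%) and 4 were lower (all genes 6.49%). On rice straw against xylan, 4 of 41 were higher (all genes 4.56%) and 3 were lower (all genes 4.68%). On rice straw against cellulose, 4 of 41 were higher (all genes 4.26%) and 0 were lower (all genes 5.76%). The 4 higher on rice straw than on cellulose were the starch pair Y699_04641 and Y699_04642 with Y699_04631 and Y699_04649. Y699_04625 was 3.58-fold and Y699_04635 2.43-fold lower on rice straw than on cellulose (ratios 0.279, 0.224 to 0.345, and 0.411, 0.338 to 0.497), and neither was called. With the assumed variation of 0.4, cellulose against xylan kept Y699_04625 and Y699_04655 higher and Y699_04618 and Y699_04642 lower, rice straw against xylan kept Y699_04625, and rice straw against cellulose kept none. TMM and DESeq2 scaling each added Y699_04659 lower on cellulose and Y699_04631 higher on rice straw, both against xylan.

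The other 22 members had no function text and no call. Of these, 18 stayed under 10 RPM in every library, 4 of them under 1 RPM, and Y699_04654 had 0 reads in all 4 libraries. The 4 that reached 10 RPM were Y699_04638, Y699_04645, Y699_04653 and Y699_04656, and the following were singled out after their values were seen. Y699_04638, a gene of 3282 coding bases, had 731 reads on sucrose (104 RPM), 1877 on xylan (275 RPM), 1461 on cellulose (208 RPM) and 1268 on rice straw (168 RPM). It was the member with the most reads on xylan and on cellulose, and its ratio to sucrose was 2.64 on xylan (2.42 to 2.88), 2.0 on cellulose (1.82 to 2.18) and 1.61 on rice straw (1.47 to 1.76), under the threshold in each. Y699_04645 had 129, 126, 353 and 318 reads on sucrose, xylan, cellulose and rice straw, with cellulose at 2.73-fold sucrose (2.23 to 3.37). Y699_04627 had 0, 12, 65 and 21 reads and missed the 10 RPM minimum at 9.26 RPM on cellulose. Y699_04621 had 55, 21, 1 and 12 reads, so that cellulose was 55.1-fold below sucrose (9.48 to 2215) on a single read, with 7.85 RPM on sucrose.

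The genes around the cluster and the other CAZyme clusters gave the frame for these counts. Among the 20 locus tags before the cluster and the 20 after it, 25% on each side were called against sucrose in some library, close to the 26.2% of the members. Of the 20 tags after it 19 reached 10 RPM in some library, and of the 20 before it 10 did, against 21 of the 42 members. Across the 43 other clusters, 41.4% of 191 CAZymes and 29.1% of 409 other genes were called. In cluster 6, at nearby locus tags, 47.8% of 23 genes were called, and in the larger cluster 10 it was 32.4% of 71. On rice straw, 4 of the 10 CAZyme members were higher than on sucrose, as were 46 of 188 CAZymes tested in the other clusters (24.5%). The 4 locus tags left out of the members are not counted here, so the first share is not that of the whole cluster. The difference between these shares was not tested.

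**Figure D5:**
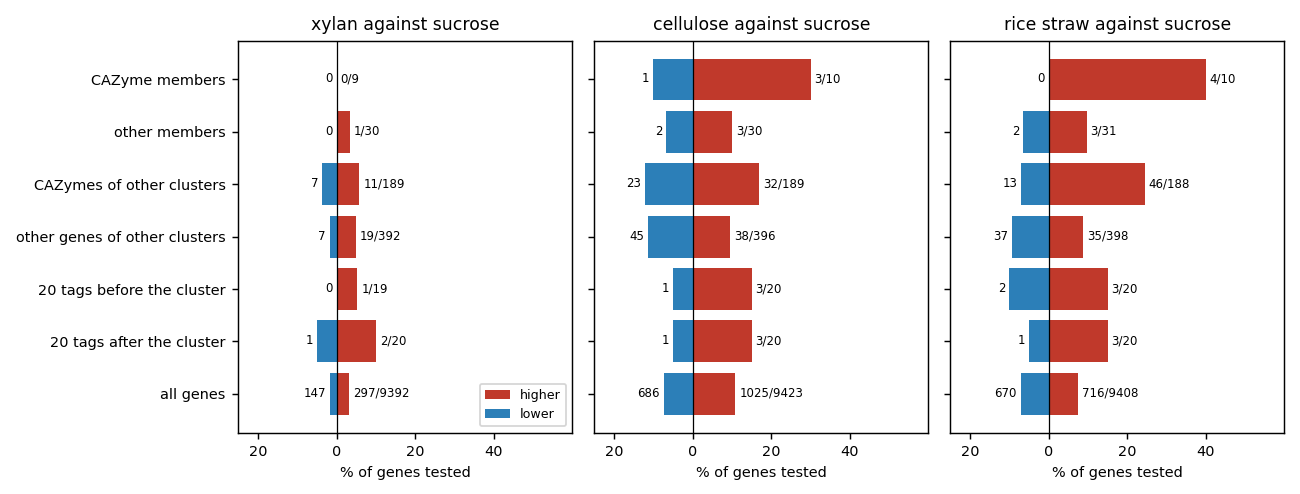
Percent of genes tested that were called higher (red, to the right) and lower (blue, to the left) in each polysaccharide library against sucrose, for the CAZyme members, the other members, the 43 other clusters, the 20 locus tags on each side and all genes; numbers give the genes called, with the genes tested after the slash. The CAZyme members hold 0 higher calls for xylan, 3 of 10 for cellulose and 4 of 10 for rice straw.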

How the data were processed

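RNA of 4 *A. fumigatus* Z5 cultures (sucrose, xylan, cellulose, rice straw, 1 library each) was sequenced. The authors aligned reads to the predicted genes, for which the submitters' notes name Bowtie 0.12.2, and deposited read counts of 9540 genes. The deposited RPM equalled reads over the library total, times 1000000, for 100% of values (within 1e-06 RPM), without division by length. The treatment of strand and of reads that map repeatedly is not given in the sources used here. The table's ratio, q-value and up or down columns, the authors' own comparisons, were not used. Coding lengths were those deposited, all multiples of 3. The column named Avicel was taken as the cellulose library.

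Counts were used as deposited, scaled by library totals. For each pair of libraries an exact binomial test (two-sided) was run on the reads, with Benjamini-Hochberg adjustment over all genes with a read in either (SciPy 1.17.1, Python 3.11.15), called at an adjusted p of at most 0.0001, 4-fold and 10 RPM in either library, the thresholds of the study's methods. No p-values are given, since no library had a replicate. Ratios carry exact 95% counting intervals (Clopper-Pearson, conditional on the summed reads). These intervals and the floor of 3 counts per library cover counting error only. List medians add 0.5 reads. Named were the CAZymes, members with a function text and members called in any of 6 comparisons, 20 in all. The members, lists and alternatives were chosen with earlier results of these data known. Alternatives were TMM (edgeR 4.0.16) and DESeq2 (1.42.0) factors, a MARS read test, edgeR's exact test with a coefficient of variation of 0.4, no RPM minimum, a 2-fold threshold and 1 read added. The test code was tested on simulated data.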

Additional observations from a re-analysis of the deposited data

Results flagged for a closer look

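For 4 members the ratios to sucrose of 2 polysaccharide libraries lay on opposite sides of 1, each with a counting interval clear of 1, and the direct comparison of these libraries was called. Y699_04624 had a log2 ratio of -3.07 on cellulose against xylan. The α-amylase gene Y699_04642 had -4.89 in the same comparison. Y699_04649 had -3.20 on cellulose against xylan and 3.22 on rice straw against cellulose. Y699_04631 had 4.47 on rice straw against cellulose. Cellulose was the low library in each of these pairs. Each value compares 1 library with 1 other, so the spread between cultures is not known. With an assumed coefficient of variation of 0.4, Y699_04642 on cellulose against xylan was the one of these calls that held.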

How the results depend on the processing

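No paired analysis was possible because each carbon source had 1 library, and no library could be left out. The MARS read test moved no count of called members by over 1.5 times. TMM and DESeq2 scaling moved the median log2 ratio of all genes by 0.19 and 0.21 on xylan, -0.08 and -0.08 on cellulose, and 0.30 and 0.30 on rice straw against sucrose, and raised the count higher on xylan from 1 to 3 under either. They also moved cellulose against xylan from 5 to 4 higher and from 4 to 5 lower, and rice straw against xylan from 4 to 5 higher, and left the other counts as reported. For the settings that follow, the count of all genes called is in parentheses, of the 9392 to 9423 genes tested in each comparison. Without the RPM minimum, 2 members were higher on xylan (363) and 8 higher (1202) and 5 lower (798) on cellulose than on sucrose. On rice straw 10 were then higher (834) and 3 lower (793) than on sucrose. Against xylan, 8 were higher (1051) and 6 lower (720) on cellulose and 5 higher (525) on rice straw. Against cellulose, 1 was lower (665) on rice straw. With a 2-fold threshold, 7 members were higher on xylan (705) and 8 higher (1974) and 6 lower (1567) on cellulose than on sucrose. On rice straw 12 were then higher (1358) and 3 lower (2058) than on sucrose. Against xylan, 7 were higher (2179) and 8 lower (1257) on cellulose, and 10 higher (1155) and 5 lower (1260) on rice straw. Against cellulose, 6 were higher (967) and 2 lower (1979) on rice straw. With a coefficient of variation of 0.4, the counts against sucrose were 0 higher (57) on xylan, 3 higher (209) and 1 lower (138) on cellulose, and 3 higher (153) and 0 lower (61) on rice straw. Those against xylan were then 2 higher (90) and 2 lower (102) on cellulose and 1 higher (51) and 0 lower (45) on rice straw. On rice straw 0 were higher (41) than on cellulose. These changes follow from each setting's own thresholds, scale or assumed spread. Adding 1 read in place of 0.5 could not change a call, since calls use the reads without an addition. Ratios to sucrose of named members that were not called stayed within their counting intervals. The log2 ratio of Y699_04625 moved from 9.54 to 8.54 on cellulose and from 7.71 to 6.71 on rice straw. That of Y699_04618 moved from -8.18 to -7.18 on cellulose. These ratios have 0 reads in 1 library and so no interval. Called ratios differ at least 4-fold, more than the shifts given above, so under TMM or DESeq2 scaling none could change direction, and none did. Among the named members, ratios to sucrose that were not called changed direction for 4. On rice straw the log2 values (TMM, DESeq2) became 0.04 and 0.04 for Y699_04642 and 0.02 and 0.03 for Y699_04624. On xylan they became 0.01 and 0.03 for Y699_04644 and 0.10 and 0.11 for Y699_04650. Uncalled ratios of unnamed members and between polysaccharides were not checked for this. Members with few reads on sucrose, such as the 3 of Y699_04635, have wide intervals. The 18 unnamed members under 10 RPM could not be called because of the RPM minimum, and 6 of them were called in some comparison without it.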
